A study of Monodelphis domestica with 9 samples.

Results

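Meckel's cartilage (MC) is the rod of embryonic cartilage along which the mammalian lower jaw forms, and its rear end is continuous with the malleus, an ossicle of the middle ear. In the opossum *Monodelphis domestica*, whose young are born very immature, the connection between MC and the malleus is lost after birth, and the study sampled RNA around that time. The labels give no treatment or genetic change, so the labelled difference between the groups is postnatal age: P20, P18 and P16, each with 3 animals and 9 libraries in all, from laser-captured MC and malleus with little of the surrounding perichondrium. The labels list each animal as a sample of its own, but the deposited table holds only the mean of each condition.

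The conditions are coded q1, q2 and q3 in that table. No label says which code stands for which stage. The codes are therefore used throughout, and nothing below says which stage was higher. Expression is given in FPKM, a count of sequenced fragments divided by transcript length and by library size, for each TSS group, which is a set of transcripts of 1 gene that share a transcription start site. Without values per animal there is no spread to set a difference against. The test results that the table also holds were not used, so every ratio below is given without a replicate check or a p-value. The depth of each library is unknown.

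The TSS groups described here are the 150 with the lowest ratio of q3 to q1. They were drawn from 1465 TSS groups of 1163 named genes that had an FPKM of at least 5 in q1, a value above 0 in q3 and a test status of OK, of 28026 TSS groups listed in all 3 conditions. The 150 were 10.2% of the eligible TSS groups and belonged to 132 gene symbols. The rule used q1 and q3, so the ratio of q3 to q1 is a description of how they were selected. The minimum in q1 also means that a gene could enter through a high q1 alone. The ratios with q2 are not free of the rule either, since q2 to q1 shares q1 with it and q3 to q2 shares q3.

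The working name of this set was that of genes that fall against a general shift, and the values bear that out in part. Over the 1465 eligible TSS groups the median log2 ratio (q3 over q1) was 2.18, so that a typical TSS group had a much higher FPKM in q3 than in q1. Among the 150 selected, 113 (75.3%) were higher in q3 than in q1 as well, and 37 were lower, against a background of 2.53% of eligible TSS groups. At least 2-fold lower were 24, against a background of 1.64%. All TSS groups behind those percentages were selected by the rule itself, so nothing can be read from the comparison. The set is thus best described as the low end of the distribution, which the histogram of ratios shows. The last TSS groups inside the limit were snoU109, NICN1 and TLE1, each with a log2 ratio of 1.23. The first outside it were GORAB and HMGXB3, both at 1.25, and IGSF8 at 1.26. The limit lay 0.95 below the eligible median on the log2 scale, and no gap in the values marks it.

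**Figure D1:**
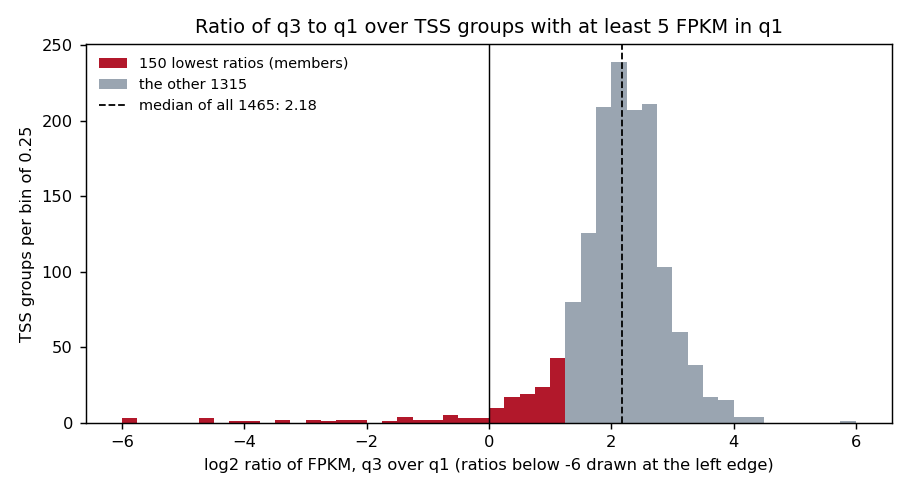
The histogram counts eligible TSS groups (vertical axis, number per bin of 0.25) by the log2 ratio of FPKM in q3 over q1 (horizontal axis), with the 150 lowest in red and the other 1315 in grey. The dashed line is the median of all 1465 at 2.18, and 3 TSS groups with ratios below -6 are drawn at the left edge.

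The selected TSS groups had low to moderate levels. Their median FPKM stood at 8.48 in q1, 6.47 in q2 and 12.4 in q3, beside 10.3, 17.5 and 49.2 over all eligible TSS groups. In q1, 86 of the 150 (57.3%) lay between 5 and 10 FPKM, a range that held 48.7% of the eligible TSS groups. They lay on chromosomes 1 to 7, as did all eligible TSS groups, with 42 on chromosome 2 and 31 on chromosome 4. The deposited rows of q3 against q1 end at TSS5013 in text order, so later TSS groups could not enter. Of 37421 TSS groups listed for q2 against q1, 28026 had all 3 conditions, and EPYC on chromosome 8 was among those without q3. The absence of other chromosomes is therefore not a result about their genes.

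Chondrocytes build cartilage by secreting a matrix of collagen II fibrils that carry collagens IX and XI on and in them, together with the large proteoglycan aggrecan, which link protein ties to hyaluronan. Matrilins join these networks, and the transcription factor SOX9 switches on most of their genes. When cartilage is replaced by bone, chondrocytes enlarge and make collagen X and MMP13, clasts resorb the matrix and osteoblasts lay down collagen I. The cartilage label of the tissue was checked against such genes. Collagen IX and XI genes, matrilin 1, link protein and SOX9 were all measured above 5 FPKM in q1. Genes of the replacement by bone were measured there as well. Over TSS groups listed in all 3 conditions, osteoblast and bone matrix genes summed to 15627 FPKM in q1 and clast genes to 1266. Hypertrophic chondrocyte genes, some of them also counted with osteoblasts, summed to 659 and cartilage matrix genes to 897. The RNA was thus not of cartilage genes alone. The 1 TSS group that carried the symbol COL2A1, on an unplaced contig, was listed at 0 in q1 and q2, and ACAN had 3 TSS groups between 7.04 and 9.89 FPKM in q1 with no value for q3. RNA of this kind comes from a mixture of cells, and fewer cells of a type cannot be told apart from less RNA per cell.

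Of the lists of protein-coding genes, that of the cartilage matrix had the most TSS groups in the set. Of 18 eligible TSS groups on it, 14 were among the 150, from COL9A1, COL9A2, MATN1, CYTL1, LECT1 and HAPLN1. Of these 14, 9 were lower in q3 than in q1, 5 of them at least 2-fold. The median log2 ratio (q3 over q1) over all 18 was -0.03, beside 2.18 over all eligible TSS groups. The 4 eligible TSS groups that were not selected belonged to COL11A1, COL11A2 and COMP, so the ratios on the list ran from -4.66 to 2.65.

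MATN1, which encodes matrilin 1, an adaptor protein of the cartilage matrix, had 33.2 FPKM in q1, 3.89 in q2 and 1.995 in q3 (TSS group TSS302397). The log2 ratio of q3 to q1 was -4.05, a 16.6-fold lower value. The gene lies on chromosome 4 from 431579948 to 431616812 by the coordinates of the deposited table, whose genome build the sources used here do not give. CYTL1, a small secreted protein of chondrocytes, had 2 TSS groups that started at nearly the same level. TSS374833 had 13.5 FPKM in q1, 2.37 in q2 and 0.534 in q3. TSS374832 had 13.3 FPKM in q1, 3.81 in q2 and 8.49 in q3, so the 2 start sites were close in q1 and far apart in q3. They had log2 ratios of -4.66 and -0.64.

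Collagen IX decorates the surface of collagen II fibrils, and 2 of its 3 chains are encoded by COL9A1 (chromosome 2, 321116018 to 321243020) and COL9A2 (chromosome 4, 424421192 to 424458159). The larger TSS group of COL9A1, TSS130075, had 93.6 FPKM in q1, 31.2 in q2 and 59.8 in q3, whereas the smaller, TSS130076, had 18.6, 2.21 and 1.86. Their log2 ratios of q3 to q1 were -0.65 and -3.32, so both were lower in q3 but by very different factors. COL9A2 was the highest gene of the set. Its TSS group TSS302300 had 191 FPKM in q1, 78.9 in q2 and 241 in q3, while TSS305101 had 83.9, 20.1 and 89.8. TSS305102 had 63.2, 10.3 and 24.2, and TSS305104 had 20.1, 8.76 and 18.5. The first pair of these was slightly higher in q3 than in q1 and the second pair lower, with log2 ratios of 0.33, 0.10, -1.38 and -0.12, and all 4 were lowest in q2.

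LECT1 encodes chondromodulin, a cartilage protein that holds back blood vessel growth. Its TSS group TSS474862 had 33.8 FPKM in q1, 5.75 in q2 and 10.7 in q3, a log2 ratio of q3 to q1 of -1.65. TSS474863 had 43.2, 20.7 and 45.2 FPKM, a ratio of 0.07. HAPLN1, which encodes link protein, had 3 selected TSS groups. The largest, TSS208916, had 19.7 FPKM in q1, 6.94 in q2 and 21.9 in q3, TSS208915 had 7.21, 2.33 and 7.94, and TSS208917 had 5.17, 4.49 and 3.01. In 2 of the 3 the values of q3 and q1 were nearly the same, with log2 ratios of 0.15 and 0.14, and the third was at -0.78.

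**Figure D2:**
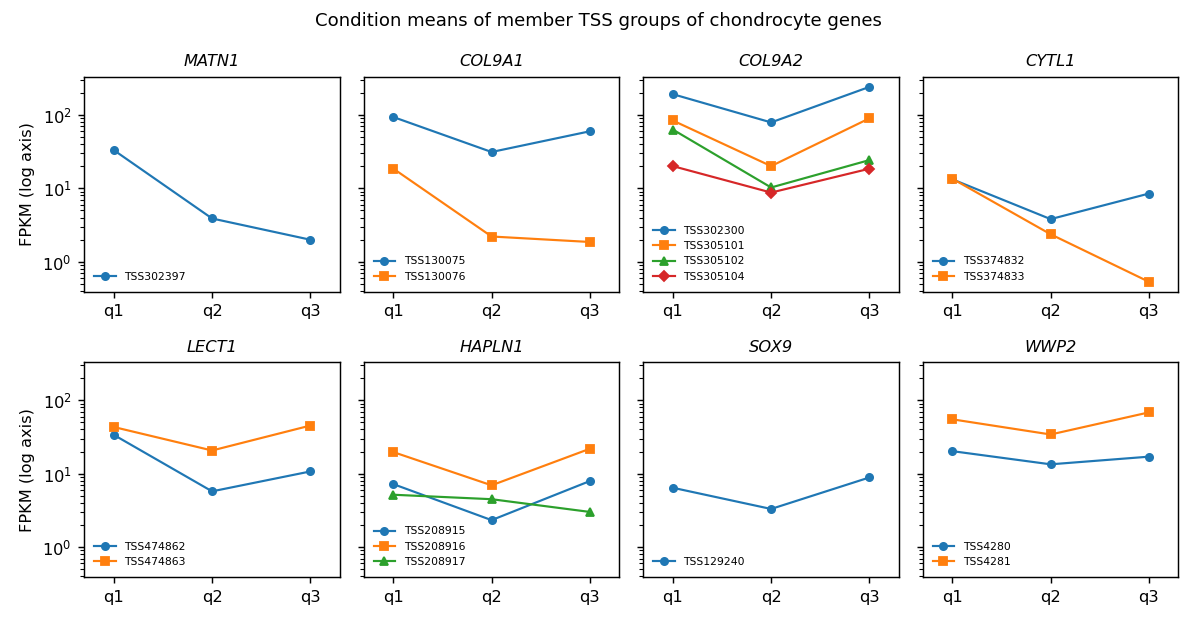
Each panel shows 1 chondrocyte gene, with the FPKM of its selected TSS groups (vertical log axis, condition means without error) in q1, q2 and q3 (horizontal axis). MATN1 and one start site each of COL9A1 and CYTL1 were highest in q1 and lowest in q3, whereas in most other TSS groups q2 was the lowest, as in COL9A2 with 191 FPKM in q1, 78.9 in q2 and 241 in q3.

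The 14 selected cartilage TSS groups were all lower in q2 than in q1, 13 of them at least 2-fold, and in 10 of them q2 was the lowest of the 3 conditions. Over all eligible TSS groups these shares were 13.6%, 4.51% and 12.9%, and among the 150 selected 95, 49 and 85 did so, so a low q2 was frequent in the whole set. The median log2 ratio of q2 to q1 over the 14 was -1.72. With the 4 others on the list, 16 of 18 were lower in q2 than in q1. COL11A1 had 87.0 FPKM in q1, 110 in q2 and 264 in q3, while COMP, a matrix glycoprotein, had 7.08, 3.58 and 44.3. Further cartilage TSS groups with at least 5 FPKM in q1 could not enter because q3 was not listed for them. All 8 of these were lower in q2 than in q1, an order that the minimum in q1 can itself favour. COL9A3, the third chain of collagen IX, had 39.8 FPKM in q2 and 98.3 in q1, 20.8 in q2 and 104 in q1, and 5.91 in q2 and 15.4 in q1 in its 3 TSS groups. EPYC, which encodes the proteoglycan epiphycan, had 8.09 FPKM in q2 and 54.1 in q1. SCRG1, a gene expressed in differentiating chondrocytes, was left out because q3 was listed at 0. It had 0.179 FPKM in q2 and 8.04 in q1 in one TSS group, and 0.224 in q2 and 7.36 in q1 in the other.

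Regulators of chondrocytes were also frequent in the set, at higher ratios. Of 11 eligible TSS groups on that list 5 were selected, and the median log2 ratio (q3 over q1) over the 11 was 1.32. SOX9 had 6.43 FPKM in q1, 3.31 in q2 and 8.89 in q3. WWP2, a ubiquitin ligase whose gene hosts the cartilage microRNA miR-140, had 20.3 FPKM in q1, 13.4 in q2 and 17.0 in q3 at TSS4280, and 55.0, 34.2 and 68.3 in TSS4281. SOX9 and these 2 WWP2 TSS groups were lowest in q2. The 2 eligible WWP2 TSS groups that were not selected had 12.9, 7.76 and 34.7 FPKM at TSS4279 and 9.90, 15.1 and 44.3 at TSS4282, and the gene summed to 99.4, 70.8 and 167. BARX1, a homeobox factor of the facial mesenchyme, had 9.30 FPKM in q1, 14.8 in q2 and 16.5 in q3 at its selected TSS group. TRPS1, a zinc finger repressor needed for normal cartilage growth, had 6.42, 8.09 and 12.4 at its selected TSS group. Over its 7 TSS groups TRPS1 summed to 21.3, 30.7 and 63.9. These 2 were higher in each later code.

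Few TSS groups of genes of the replacement of cartilage by bone were in the set. As 10.2% of all eligible TSS groups were selected, the small counts below lie near the general share and nothing is read from them. The list of hypertrophic chondrocyte genes had 12 eligible TSS groups and 0 in the set, with a median log2 ratio (q3 over q1) of 3.03. Clast genes had 6 eligible and 0 selected, with a median of 3.71. Of 19 eligible osteoblast and bone matrix TSS groups, 1 was selected, and the median was 3.03. These medians lay above the 2.18 of all eligible TSS groups, on the other side from the cartilage matrix list. The hypertrophic and osteoblast lists share ALPL, SPP1, IBSP, SP7 and RUNX2, so their medians are not separate observations. The osteoblast list summed to 15627 FPKM in q1, 128194 in q2 and 207359 in q3. The cartilage matrix list summed to 897, 474 and 1269 FPKM. FPKM is relative to the library, and the part of these bone transcripts in the ratios of other genes was not tested.

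**Figure D3:**
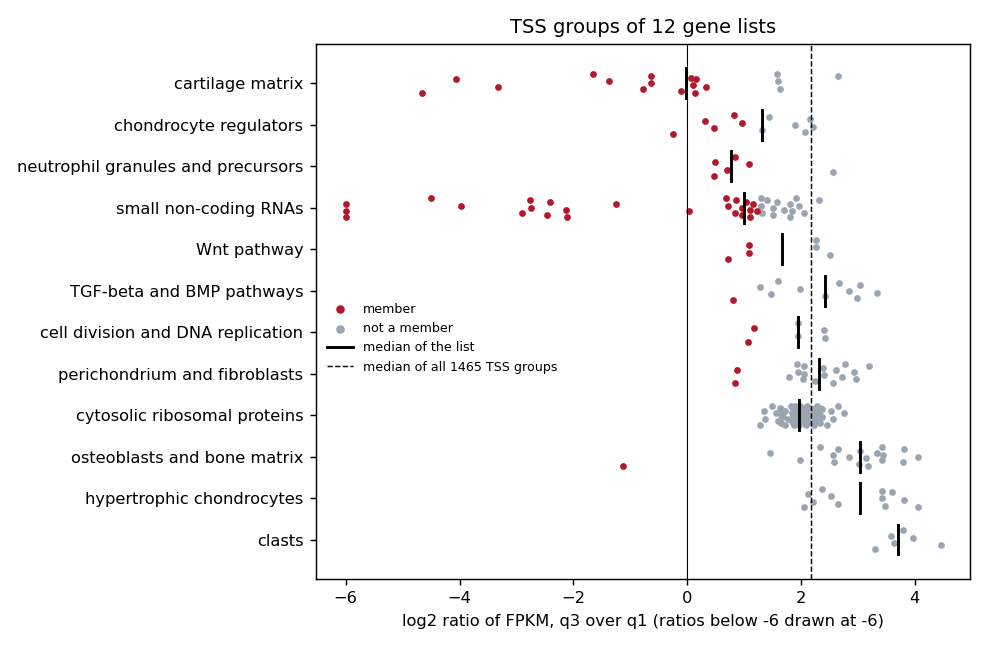
Each dot is an eligible TSS group of 1 of 12 gene lists, placed by its log2 ratio of FPKM in q3 over q1 (horizontal axis), red where it is among the 150 selected and grey where it is not. Black bars are list medians, from -0.03 for cartilage matrix to 3.71 for clasts, and the dashed line is the median of all eligible TSS groups at 2.18.

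The selected TSS group of the bone genes was of PHEX, an endopeptidase of osteoblasts and osteocytes whose loss causes phosphate wasting. This TSS group, TSS302620, had 7.28 FPKM in q1, 14.1 in q2 and 3.32 in q3, so q2 was the highest and q3 the lowest. Summed over the TSS groups of the gene, PHEX had 28.8 FPKM in q1, 87.9 in q2 and 213 in q3. Its low ratio therefore belonged to 1 start site and not to the gene.

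FABP7 had the lowest ratio of q3 to q1 after CYTL1 among the protein-coding genes of the set. It encodes a fatty acid binding protein of radial glia and Schwann cell precursors, and had 43.5 FPKM in q1, 4.89 in q2 and 1.82 in q3, so that the log2 ratio of q3 to q1 was -4.58. The list of neuron and Schwann cell genes had 2 eligible TSS groups, and FABP7 was the one selected. The other one was PMP22, a myelin protein, which had 7.78 FPKM in q1, 7.33 in q2 and 29.8 in q3, a log2 ratio of q3 to q1 of 1.94. Below the minimum of 5 FPKM, single TSS groups of neuronal genes of that list had low q3 values. TUBB3, a neuronal tubulin, had 3.61 FPKM in q1, 3.22 in q2 and 0.0651 in q3 at TSS4245, while STMN2, a regulator of axonal microtubules, had 2.55, 1.9998 and 0.0665 at TSS211347 but 0.501, 0.343 and 2.40 at TSS211346. MBP, another myelin protein, had 1.62, 2.34 and 6.0005 at TSS211846, its highest TSS group. The Schwann cell transcription factor SOX10 was listed at 0 in q1 and q2 with no value for q3. The 40 listed TSS groups of that list summed to 99.7 FPKM in q1, 83.1 in q2 and 267 in q3. Of these, 17 of the 40 were at 1 FPKM or more in q1. The part of nerve cells in the value of FABP7 was not tested.

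FGFBP2, a member of the family of secreted FGF binding proteins, had 2 TSS groups with similar ratios. TSS373317 had 63.7 FPKM in q1, 4.46 in q2 and 24.5 in q3, while TSS373315 had 19.7, 1.95 and 7.49. The log2 ratios of q3 to q1 were -1.38 and -1.40, and those of q2 to q1 were -3.84 and -3.34. Of the protein-coding genes in the set FGFBP2 had the lowest ratio of q2 to q1. Next to it by that ratio came PFDN1, a subunit of the chaperone prefoldin, which had 6.04 FPKM in q1, 0.499 in q2 and 6.94 in q3. GIGYF2, a partner of the translational repressor EIF4E2, had 8.92, 1.13 and 6.97 FPKM. Of EIF4E2 itself 1 TSS group was selected, TSS127724, with 12.2 FPKM in q1, 6.35 in q2 and 21.3 in q3. Over its 2 TSS groups EIF4E2 summed to 17.0, 23.1 and 76.4 FPKM, so the gene sum was not low in q2. PFDN1, GIGYF2 and EIF4E2 were singled out after their values were seen.

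The remaining protein-coding TSS groups at least 2-fold lower in q3 belonged to ZC3H3 and LRRC45. ZC3H3, a zinc finger protein of mRNA polyadenylation and export, had 5.16 FPKM in q1, 2.23 in q2 and 0.539 in q3. LRRC45, a centrosomal protein, had 11.8, 4.16 and 5.76 at TSS129290, but 35.3, 44.1 and 113 FPKM over its 6 TSS groups. Their log2 ratios of q3 to q1 were -3.26 and -1.04. With CYTL1, FABP7, MATN1, COL9A1, LECT1, FGFBP2, COL9A2 and PHEX, 10 gene symbols other than small RNAs had a TSS group at least 2-fold lower in q3. All eligible TSS groups that much lower, 1.64%, are in the set by the rule. Summed over their TSS groups, ZC3H3, COL9A2, LRRC45 and PHEX were higher in q3, and COL9A1 and LECT1 were lower by less than 2-fold.

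Small non-coding RNAs made up 25 of the 150 TSS groups (16.7%) and 2.73% of the eligible ones, 40 in number, so that 62.5% of them were selected. They supplied 13 of the 37 TSS groups that were lower in q3, and all 13 were at least 2-fold lower. SNORA genes and SCARNA genes encode RNAs that guide the chemical modification of ribosomal and spliceosomal RNA, U1 and U6 RNA are parts of the major spliceosome and U6atac of the minor one, 5S rRNA is part of the ribosome, and 7SK RNA restrains transcription elongation.

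Very low values in q2 were frequent among them. In 12 of the 25, q2 was at most 1e-06 FPKM, with 10 of these listed at 0, while this was so for 0 of the other 125 selected TSS groups. The 5S_rRNA TSS group TSS375017 had 30.8 FPKM in q1, was listed at 0 in q2 and had a value below 1e-06 in q3. SNORA44 had 6.11 FPKM in q1 and values below 1e-06 in both other conditions. No ratio is given for these 2, since such values are estimates with no read count behind them. U6atac had 5.71 FPKM in q1, was listed at 0 in q2 and had 0.0435 in q3, while SCARNA17 had 12.2 in q1, 0 in q2 and 0.534 in q3. SNORA13 had 14.7, 2.78 and 0.938 FPKM at TSS428941, the 1 selected small RNA TSS group with each later code lower. Its other TSS group, TSS428942, had 6.46, 9.28 and 18.4, and the sum of both was 21.1, 12.1 and 19.4. The U6 TSS group had 38.1, 1.69 and 6.87 FPKM, and the U1 TSS group TSS209577 had 17.6, 1.38 and 2.58. SNORA74 had 12.3, 1.32 and 2.33 FPKM at TSS1967 and summed to 16.9, 7.51 and 19.5 over 4 TSS groups, while the 5S_rRNA TSS group TSS127834 had 28.6, 11.5 and 11.999. Genes for 5S rRNA, U1 and U6 exist in near-identical copies, so the reads of one copy are uncertain.

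Other small RNAs had a low q2 with a q3 above q1. SCARNA3 had 12.6 FPKM in q1, was listed at 0 in q2 and had 24.5 in q3, while a further 5S_rRNA TSS group, TSS211580, had 7.55, 0 and 14.8. Over the 25, q2 was lower than q1 in 23 and the lowest of the 3 conditions in 22. Their median FPKM stood at 12.2 in q1, 1.32 in q2 and 11.7 in q3. The paper names the SMARTer Ultra Low Input kit for amplification. How fully it captures small RNAs is not stated in the sources used here, so these values are not read as their abundance.

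Of the 25 small RNAs, 9 lay in the same stretch of the genome as a named gene with at least 5 FPKM in q1, and 8 such genes were involved because SNORA25 and SNORA18 share TAF1D. The FPKM of the gene, summed over its TSS groups, was higher in q3 than in q1 in all 9 cases, and its ratio was above that of the small RNA in all 9. The small RNAs were selected for a low ratio of q3 to q1 and the genes were not, so this order is a description of the selection and carries no further weight. Of the 15 eligible small RNAs that were not selected, 4 had such a gene in their stretch, again with the higher ratio in all 4. Their median log2 ratios were 1.75 for the small RNAs and 2.27 for the 3 genes involved. SNORA72 had 9.79 FPKM in q1, was listed at 0 in q2 and had 1.31 in q3, whereas RPL30, a ribosomal protein gene in whose stretch it lies, had 128, 221 and 510. SNORA48 had 20.3, 0 and 3.05 FPKM, whereas EIF4A1, the helicase of translation initiation, had 57.6, 149 and 463. SNORA63 had 19.8, 19.3 and 20.3 FPKM at its selected TSS group, and 19.8, 33.0 and 21.6 summed over its 2 TSS groups, while EIF4A2 had 16.1, 37.4 and 98.5. The median log2 ratio (q3 over q1) was 0.04 for the 9 small RNAs and 2.17 for the 8 genes. All 9 small RNA TSS groups were lower in q2 than in q1, against 1 of the genes, SOX6. The genes were summed over their TSS groups and the small RNAs were not. By sums SNORA63 was higher in q2 than in q1, and the others of the 9 were still lower. Whether the counting tells reads of a small RNA from those of the gene around it is not stated in the sources used here.

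**Figure D4:**
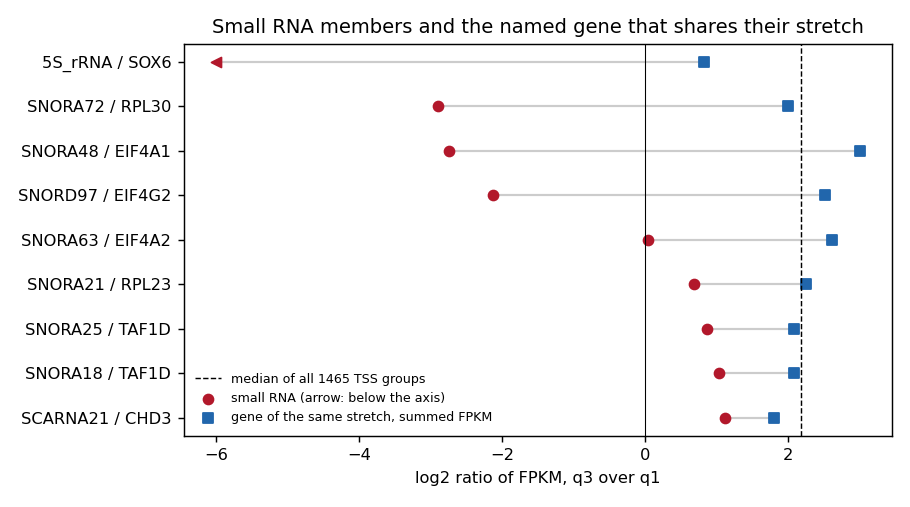
Each row pairs a selected small RNA (red) with the named gene in the same stretch of the genome (blue square, FPKM summed over its TSS groups), by the log2 ratio of FPKM in q3 over q1 (horizontal axis). The small RNAs were selected for a low value on this axis and the genes were not, so the gene lies to the right in all 9 rows by the way they were chosen, and the arrow marks a 5S_rRNA TSS group below the axis.

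Genes of neutrophils and their precursors were the next list with a large share in the set, 5 of 6 eligible TSS groups. S100A8 and S100A9 form calprotectin, a calcium binding protein of neutrophil cytoplasm, and S100A12 is a relative of both. S100A8 had 73.7 FPKM in q1, 45.8 in q2 and 102 in q3 at TSS128785, and 13.3, 4.13 and 23.7 in TSS128784. S100A9 had 37.6, 15.8 and 52.5 FPKM, and S100A12 had 17.6, 8.39 and 28.5. PGLYRP1, a bactericidal protein of neutrophil granules, had 21.2, 14.5 and 44.7. All 5 were higher in q3 than in q1, by log2 ratios of 0.46 to 1.08, and in all 5 q2 was the lowest. The sixth, MPO, which encodes the peroxidase of neutrophil precursors, had 29.2, 66.9 and 172 FPKM and a ratio of 2.55. The 3 S100 genes were neighbours on chromosome 2, 15828 bases apart from S100A9 to S100A12 and 35039 bases from S100A12 to S100A8. The 19 listed TSS groups of that list summed to 199 FPKM in q1, 172 in q2 and 449 in q3. Of the 19, 9 were at 1 FPKM or more in q1, and 0 of them were at 0 in all conditions. The part of neutrophils in these values was not tested. C1QA, a complement gene of macrophages, had 8.47, 5.87 and 18.9 FPKM.

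Members from the Wnt, TGF-beta and BMP, and autophagy lists were few, and each was higher in q3 than in q1. Of 6 eligible Wnt pathway TSS groups 3 were selected. The receptor FZD9 had 8.06 FPKM in q1, 7.12 in q2 and 13.2 in q3, while RSPO3, a secreted amplifier of Wnt signals, had 5.72, 3.56 and 12.1. SFRP4, a secreted Wnt antagonist, had 6.25, 11.9 and 13.2. The median log2 ratio (q3 over q1) over the 6 was 1.67. Of 11 eligible TGF-beta and BMP pathway TSS groups 1 was selected, the growth factor BMP5 with 8.10, 10.5 and 14.1 FPKM, and the median over the 11 was 2.42. Of 5 autophagy TSS groups 1 was selected, of ATG12 with 7.44, 4.71 and 16.1 FPKM, and the 2 TSS groups of ATG12 summed to 14.3, 13.9 and 38.7. THBS1, an adhesive glycoprotein of the perichondrium and fibroblast list, had both its TSS groups in the set, with 12.5, 9.09 and 22.4 FPKM and with 7.49, 5.28 and 13.7.

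Selected TSS groups of genes of cell division and RNA handling had log2 ratios of q3 to q1 from 0.74 to 1.17. TOP2A, the topoisomerase of dividing cells, had 6.12 FPKM in q1, 5.63 in q2 and 12.8 in q3, while MCM6, a subunit of the replicative helicase, had 5.21, 3.96 and 11.7. They were 2 of 6 eligible TSS groups on their list. CIRBP, a cold-inducible RNA binding protein, had 8.92, 8.32 and 14.9 FPKM in one TSS group and 8.79, 18.9 and 19.5 in the other, and the splicing factor SRSF11 had 6.42, 11.4 and 12.9. They were 3 of 30 eligible on the list of splicing and RNA binding factors. The zinc finger genes ZNF778 and ZNF697 had ratios of 0.49 and 1.12. Of 71 eligible TSS groups of cytosolic ribosomal proteins 0 were selected, with a median of 1.97. Among the members with the highest q1, SLC40A1, the iron exporter ferroportin, had 55.1, 55.4 and 123.2 FPKM, ZGPAT, a zinc finger repressor, had 41.5, 54.6 and 95.0, and MRPL33, a mitochondrial ribosomal protein, had 65.3, 147 and 141.

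In most of the selected TSS groups the lowest condition was q2, which the rule did not use. The value in q2 was lower than in q1 in 95 of the 150 (63.3%), against a background of 13.6% of eligible TSS groups, and at least 2-fold lower in 49, against 4.51%. The value in q3 was lower than in q2 in 28 (18.7%), against 1.98%, but all except 1 of the TSS groups behind that 1.98% were selected. In 85 (56.7%) q2 was the lowest of the 3, against 12.9%, and in 18 (12%) it was the highest. In 10 the values were lower with each later code. In 37 they were higher with each, an order that held for 92% of the 1315 TSS groups that were not selected. The same q3 enters the rule and the ratio of q3 to q2. The counts that compare q3 with q2, and the 92%, are therefore in part a result of the selection, and nothing is read from them. The same q1 enters the rule and the ratio of q2 to q1, and its part in these counts was not tested. Without the small RNAs, q2 was lower than q1 in 72 of 125 and the lowest in 63.

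The TSS groups with the highest ratios of q2 to q1 were of another kind. CHCHD7, a mitochondrial protein, had 5.15 FPKM in q1, 19.0 in q2 and 8.10 in q3, while MRPL55, of the mitochondrial ribosome, had 6.19, 22.4 and 10.3. BAALC had 5.94, 17.1 and 8.44 FPKM, and CRABP1, which binds retinoic acid in the cytoplasm, had 35.3, 94.6 and 81.8. SERPINH1, the collagen chaperone of the endoplasmic reticulum, had 13.5, 31.1 and 30.3 in TSS304030. In each of these TSS groups q2 was the highest condition. Summed over its 3 TSS groups, MRPL55 had 14.5, 34.7 and 64.2 FPKM, with q3 highest, while the sums of the others kept q2 highest.

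A value lower in q3 than in q1 often belonged to single start sites rather than to the whole gene. With FPKM summed over all TSS groups of a gene, 22 of 136 genes (counted by symbol and place) were lower in q3 than in q1, and 12 of these were small RNAs. The other 10 were FABP7, MATN1, CYTL1, FGFBP2, VN2R560, COL9A1, LECT1, GIGYF2, CCP110 and HAPLN1. Of 84 genes other than small RNAs with 2 or more TSS groups, 75 had a higher sum in q3 and 9 a lower one, and the median log2 ratio of the sums was 1.10. Only 5 of the 84 had a sum ratio at or above 2.18, the median of the eligible TSS groups. Each sum includes the TSS group that was selected for a low ratio, so low sums are in part a result of the selection. The other TSS groups of these genes with status OK and at least 1 FPKM in q1, 81 in number, had a median log2 ratio of 1.75. Over 6734 such TSS groups of other genes the median was 1.84, so outside the selected TSS groups the ratios lay near the general level. Of the 24 TSS groups other than small RNAs that were lower in q3, 11 belonged to genes with a higher sum, those of C2orf40, CAST, COL21A1, COL9A2, DYNLL2, LRRC45, PHEX, TPM4, WWP2 and ZC3H3. ZC3H3 had a log2 ratio of -3.26 at its selected TSS group and 0.18 over the gene, and LRRC45 had -1.04 and 1.68.

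The cartilage genes largely kept their place by this measure. COL9A1 summed to 112 FPKM in q1, 33.4 in q2 and 61.7 in q3, LECT1 to 80.5, 28.4 and 60.7, and HAPLN1 to 33.6, 14.3 and 33.5. COL9A2 summed to 363, 120 and 373, so its sum was as high in q3 as in q1. Of 30 genes of the set with 2 or more eligible TSS groups, 9 had every one of them selected: COL9A1, COL9A2, CYTL1, FGFBP2, HAPLN1, LECT1, S100A8, SERPINH1 and THBS1. The TSS groups of 1 gene share its reads, and they are not independent measurements.

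**Figure D5:**
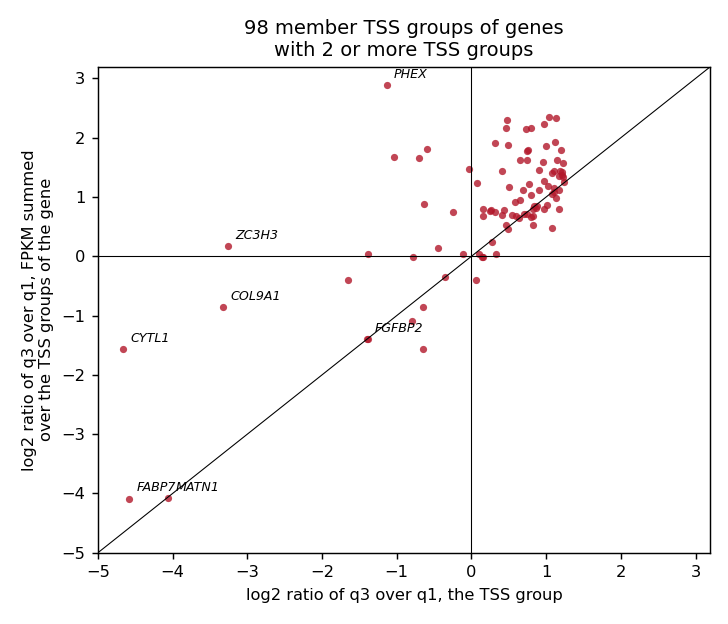
Each of 98 selected TSS groups of genes with 2 or more TSS groups, small RNAs left out, is placed by its own log2 ratio of FPKM in q3 over q1 (horizontal axis) and by that of the FPKM summed over its gene (vertical axis). Points on the diagonal, such as MATN1 and FGFBP2, have the same ratio in both, and PHEX at -1.13 and 2.89 lies farthest above it.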

How the data were processed

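RNA from laser-captured MC and malleus of 3 opossums at each of 3 stages was amplified from very small inputs and sequenced. TopHat, Cufflinks and Cuffdiff are named in the processing notes of the submitters. The sources used here give no versions, genome build, annotation, use of strand or scaling between libraries. The authors deposited a Cuffdiff table of 65535 rows with condition means in FPKM per TSS group, coded q1, q2 and q3. The table is cut off, and TSS groups after TSS5013 in text order have no q3 value in it. The authors' value for the second condition of each pair is in FPKM as well. The deposited columns of test results (fold change, test statistic, p-value, q-value and call) were not used, and neither was the shorter table of called tests. The status column served as a filter.

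Rows of q3 against q1 with identifiers up to TSS5013 in text order were taken, with q2 from the rows of q2 against q1. Of these, TSS groups of named genes with at least 5 FPKM in q1, a value above 0 in q3 and status OK were ranked by the ratio of q3 to q1, and the 150 lowest were kept. The selection was tested on simulated data. The members and the 33 gene lists were chosen with earlier results of these data known. Gene sums add FPKM over the TSS groups of a symbol at 1 place. A TSS group counts as called from a 2-fold difference, and no test was run, since there are no values per animal. Small RNAs were found by name, leaving out genes that RefSeq (assembly mMonDom1) lists as protein coding, and 98 of 132 symbols matched that table. Some genes that the rule names are not reported here. No promoter, protein or RNA sequence was used here.

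The genes named were taken from the 12 members with the lowest ratio of q3 to q1, the 12 with the highest q1, the 6 lowest and 6 highest by q2 to q1, up to 4 members of each list (with fewer than 2, also the 2 measured genes with the lowest ratio), the 3 on each side of the limit, and up to 4 whose gene sum was higher in q3. Members with equal zeros in q2 were taken by rank. Alternatives were other minimums, pseudocounts, fold thresholds, centring on the median, sums per gene and other statuses, and leaving out small RNAs, which was chosen after seeing the data. Python 3.11.15, numpy 2.4.6, pandas 2.3.3 and matplotlib 3.10.9 were used.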

Additional observations from a re-analysis of the deposited data

How the results depend on the processing

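No paired analysis was possible because the deposited columns are condition means that carry no replicate numbers, and for the same reason no replicate could be left out. The set depends on the minimum in q1. With a minimum of 1 FPKM, 10 of the 150 members were among the 150 lowest ratios. With a minimum of 10, 64 were, and with 20, 25 were, which is all that could enter at those minimums. With FPKM summed per gene, 72 of 136 member genes were among as many lowest sums. Between 125 and 150 members were kept with pseudocounts of 1 and 0.1, any status, values listed at 0 in q3 or unnamed genes. The 24 members at least 2-fold lower in q3 became 140 after centring on the eligible median and 11 without small RNAs, and were 17 to 31 with other fold thresholds or a pseudocount. Of the set chosen with a minimum of 20, 32 were lower in q2 than in q1. The 28 lower in q3 than in q2 became 106 after centring, 13 with a minimum of 10 and 4 with a minimum of 20. The 22 genes with a lower sum became 14 with a minimum of 10, 129 after centring and 10 without small RNAs. Sums turned the direction of 11 of 24 lower TSS groups other than small RNAs, in 10 genes, and of SNORA74. They turned ZC3H3 to 0.18, SNORA74 to 0.21, COL9A2 at TSS305102 to 0.042, PHEX to 2.89, LRRC45 to 1.68, COL21A1 to 1.65, TPM4 to 1.81 and WWP2 at TSS4280 to 0.75, among others. The comparison of promoter and protein features could not be made.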

Other observations

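The rule left out TSS groups that would have ranked among the lowest. Besides SCRG1, 5 were listed at 0 in q3, those of SNORA58, ASAH1, SCARNA23, U4 and MAT1A. ASAH1, the lysosomal acid ceramidase, had 1.96 FPKM in q2 and 5.26 in q1, and MAT1A, the methionine adenosyltransferase of liver, was listed at 0 in q2 and had 5.14 in q1. Of 400 unnamed TSS groups that met the other conditions, 32 had ratios at or below that of the last member, 9 were lower in q3 than in q1 and 6 at least 2-fold lower.

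Of the 33 gene lists, 16 had members and 17 had none. Besides the lists described above, the solute carriers and the collagens had members, and the collagens had 7 of 28 eligible TSS groups, of COL9A1, COL9A2 and COL21A1. COL21A1 had 5.602 FPKM in q1, 3.53 in q2 and 3.45 in q3 at TSS130044, but summed to 6.14, 5.38 and 19.3 over its 2 TSS groups. Lists with 4 eligible TSS groups and 0 members were those of immediate early genes, heat shock and protein folding, glycolysis and hypoxia, and hedgehog, PTH and FGF signals, with medians from 2.18 to 2.45. The lists of apoptosis and histones had 2 eligible each, and those of erythroid and of endothelial and smooth muscle cells 1 each. Lymphocyte, muscle, epithelium, clock, HOX and mitochondrial genome lists had 0, and the symbol pattern of the last caught COIL alone, a nuclear gene.

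Some genes under the minimum of 5 FPKM in q1 had low ratios of q3 to q1 too. SLC17A7, a vesicular glutamate transporter of neurons, had 1.39 FPKM in q1, 0.342 in q2 and 0.0189 in q3, while SLC1A3, a glutamate transporter of glia, had 1.195, 0.382 and 0.180. SMAD5, a mediator of BMP signals, had 2.34, 1.52 and 0.589 in 1 TSS group, and SMAD9, of the same pathway, had 2.69, 2.59 and 1.04. TSS groups of RPL23A, MYL2, LMOD1, MYH11, CLOCK, MS4A1 and CASP9 with 1 to 4 FPKM in q1 had ratios between -3.98 and -0.35. Depth is unknown, so how firmly such low values are measured cannot be said.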
